A study of Mus musculus with 85 samples.

Results

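Complex I of the respiratory chain was examined here through its nuclear genes in mouse preimplantation embryos. The genes were chosen by symbol alone: Ndufa, Ndufb, Ndufc, Ndufs, Ndufv, Ndufaf or Ndufab followed by a number, pseudogene symbols left out. This gave 45 genes of the 37368 in the expression table. They were sorted by the part of the enzyme they belong to: 10 in the N module, 5 in the Q module, 10 in the proximal membrane arm, 11 in the distal membrane arm, 8 assembly factors and Ndufa4. Ndufa4 carries a complex I name, but its human product is now assigned to complex IV, so it was kept apart from the 36 subunits.

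Complex I takes electrons from NADH, passes them along iron-sulfur clusters to ubiquinone and pumps protons across the inner mitochondrial membrane. The N module binds NADH, the Q module holds the quinone site, and the membrane arm pumps. The core of the membrane arm is encoded in mitochondrial DNA, and all other subunits come from the nucleus. Assembly factors build the modules and are not part of the finished enzyme. Early mouse embryos oxidise pyruvate and lactate before they come to rely on glucose, and regenerating NAD+ and NADH is part of how they use these substrates.

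Wild-type B6C3F1/J preimplantation embryos were profiled with Smart-seq2, a full-length method primed on poly(A) tails, in 85 libraries of 21 groups, with age given as hours after hCG. Medium without pyruvate was used for mid 2-cell (42 h, n = 4), late 2-cell (48 h, n = 5), very late 2-cell (52 h, n = 4) and latest 2-cell embryos (55 h, n = 4), for morulae (78 h, n = 5) and for blastocysts (114 h, n = 5). Another 4 morula libraries (78 h) had no pyruvate and 20 nM KY-PYR-9, named in the labels as an inhibitor of MYC. Medium without lactate was used for morulae (78 h, n = 5) and blastocysts (114 h, n = 4). Standard KSOM medium, with glucose at 0.2 mM, pyruvate at 0.2 mM and lactate at 5 mM, was used for early 2-cell (34 h, n = 3), mid 2-cell (42 h, n = 4), late 2-cell (48 h, n = 3), very late 2-cell (52 h, n = 3), early 4-cell (55 h, n = 4), late 4-cell (62 h, n = 4), early 8-cell (66 h, n = 3), late 8-cell (74 h, n = 2), morula (78 h, n = 6), early 16-cell (80 h, n = 5), early 32-cell (90 h, n = 4) and blastocyst (114 h, n = 4) embryos. Levels are CPM (counts scaled to a fixed total), and differences are on the log2(CPM + 1) scale, tested with limma against a Benjamini-Hochberg adjusted p of 0.05 over all genes of a fit. How many embryos or cultures each library stands for is not stated, so the p-values measure only the spread between libraries. In bulk samples, fewer cells of a type and less RNA per cell cannot be told apart.

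Inferred depths ran between 10.2 and 42.6 M reads. In some comparisons the depths of the groups did not overlap. They were 10.5 to 17.1 M in no pyruvate and 24.7 to 32.6 M in standard blastocysts. Morulae had 15.9 to 21.6 M with KY-PYR-9 and 34 to 38 M without pyruvate alone. At 55 h they were 10.2 to 18.7 M without pyruvate and 27.1 to 42.6 M in standard libraries. Standard late 2-cell had 19.9 to 27.9 M and mid 2-cell 11.3 to 18.7 M. There depth and group cannot be told apart. Stage markers followed the labels: the summed level of 7 oocyte genes averaged 36240 CPM in early 2-cell, 371.1 CPM in early 4-cell and 42.28 CPM in blastocyst libraries, and 6 trophectoderm genes summed to 17730 CPM in standard blastocysts. Cumulus genes summed to at most 10.25 CPM in any library. Standard morula libraries 1 and 2 stood apart, with 34.8% and 30.2% of their values in the 100 highest genes, against 24.2% to 25.6% in the other 4. Counts of complex I genes called, and the tests of single genes, that use the standard morulae are given with and without them. A gene entered a fit when 3 or more of its libraries exceeded 1 CPM. All 45 did so in the fits used here, but where only the compared groups were fitted 40 entered for mid against early 2-cell and 41 for the 42 h comparison.

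The sequences below show the start-site windows of 6 of the genes that the results turn on: those of large 2-cell to 4-cell rises (Ndufs8, Ndufaf5, Ndufb7, Ndufa5 and Ndufa8) and that of Ndufaf4, which had the highest CPM in early 2-cell embryos, although per length Ndufa4 stood first. Each is a RefSeq window of 300 bases in GRCm38.p6, with 250 bases before and 50 after the start, read on the gene's strand. Capitals mark a core motif of the factors known to act on many nuclear genes of the respiratory chain: GCGC, any base, then TGCGC for NRF1, or CCGGAAG for ETS factors such as GABPA. Only genes whose window holds a core were chosen for printing, so a core in all 6 follows from that choice and is no evidence.
Ndufs8, chr19:3912725-3913024, minus strand, ETS core on the opposite strand: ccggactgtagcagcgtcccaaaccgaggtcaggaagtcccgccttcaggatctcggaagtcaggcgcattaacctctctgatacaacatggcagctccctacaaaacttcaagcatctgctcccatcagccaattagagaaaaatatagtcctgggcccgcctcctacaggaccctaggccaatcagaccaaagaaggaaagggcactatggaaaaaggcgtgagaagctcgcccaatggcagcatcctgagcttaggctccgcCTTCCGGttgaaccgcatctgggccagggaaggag
Ndufaf5, chr2:140170396-140170695, plus strand, NRF1 core: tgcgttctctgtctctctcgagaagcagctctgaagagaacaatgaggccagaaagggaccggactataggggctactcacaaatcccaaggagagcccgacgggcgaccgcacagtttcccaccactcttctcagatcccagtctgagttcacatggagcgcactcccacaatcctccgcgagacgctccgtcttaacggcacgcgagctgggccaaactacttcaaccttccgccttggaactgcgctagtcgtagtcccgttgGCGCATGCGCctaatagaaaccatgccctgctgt
Ndufb7, chr8:83566508-83566807, plus strand, ETS core: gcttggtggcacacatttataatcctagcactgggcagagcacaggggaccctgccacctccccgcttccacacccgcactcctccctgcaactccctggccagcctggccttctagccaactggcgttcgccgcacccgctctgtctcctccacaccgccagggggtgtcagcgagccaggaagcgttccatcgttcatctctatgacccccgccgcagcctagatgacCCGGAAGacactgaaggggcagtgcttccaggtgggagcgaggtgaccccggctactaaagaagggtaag
Ndufa5, chr6:24527641-24527940, minus strand, NRF1 core on the opposite strand: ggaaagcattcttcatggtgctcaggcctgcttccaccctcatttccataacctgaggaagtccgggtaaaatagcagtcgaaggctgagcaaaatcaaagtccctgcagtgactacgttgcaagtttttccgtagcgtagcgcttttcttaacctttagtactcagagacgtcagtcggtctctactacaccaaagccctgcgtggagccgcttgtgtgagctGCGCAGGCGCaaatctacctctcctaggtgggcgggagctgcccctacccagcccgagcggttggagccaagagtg
Ndufa8, chr2:36049289-36049588, minus strand, NRF1 core: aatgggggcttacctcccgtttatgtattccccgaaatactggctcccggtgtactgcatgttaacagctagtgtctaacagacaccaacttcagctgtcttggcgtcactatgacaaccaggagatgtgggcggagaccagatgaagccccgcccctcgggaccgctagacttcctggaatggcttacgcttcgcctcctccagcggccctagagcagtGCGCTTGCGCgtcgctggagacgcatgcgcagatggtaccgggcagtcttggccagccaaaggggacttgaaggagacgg
Ndufaf4, chr4:24897833-24898132, plus strand, NRF1 core: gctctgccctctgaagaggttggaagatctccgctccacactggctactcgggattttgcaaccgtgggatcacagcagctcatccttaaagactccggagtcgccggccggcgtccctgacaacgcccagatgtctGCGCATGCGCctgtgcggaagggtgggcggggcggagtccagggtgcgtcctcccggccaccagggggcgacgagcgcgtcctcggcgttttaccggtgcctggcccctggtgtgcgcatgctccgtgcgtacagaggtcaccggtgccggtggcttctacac

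The first base of the motif lies at 15 relative to the start in Ndufs8, 16 in Ndufaf5, -20 in Ndufb7, -26 in Ndufa5, -30 in Ndufa8 and -113 in Ndufaf4. Windows were found for 40 of the 45 genes, and both strands were searched for the NRF1 core, the ETS core and a YY1 core (AANATGGCG). A match of the NRF1 core with the letters AT in its middle reads the same on both strands and was counted once. The NRF1 core was in 9 of the 40 genes (22.5%), against 5.19% of 27025 genes with a window. The YY1 core was in 8 (20%), against 2.76% of all genes, and the ETS core in 6 (15%), against 9.93%. No core was found in 19 of the 40. The windows of the complex I genes had a median GC content of 59.3%, against 52.7% over all windows. Ndufs6 and Ndufaf8 held more than 1 kind of core: NRF1 and YY1 in Ndufs6, ETS and YY1 in Ndufaf8. These matches describe letters in a window and were not tested against expression.

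In standard medium, subunit transcripts were scarce in early 2-cell embryos and most abundant in blastocysts, while assembly factors peaked earlier. In early 2-cell libraries 12 of the 45 genes averaged under 1 CPM and 11 reached 10 CPM, and from the late 2-cell stage on none averaged under 1 CPM. Of the 36 subunits, 33 had their highest mean in the blastocyst, Ndufs3 and Ndufa1 in late 8-cell and Ndufs8 in morula libraries. Of the 8 assembly factors, Ndufaf2 and Ndufaf4 were highest in the early 2-cell, Ndufaf1 and Ndufaf7 in the early 4-cell, Ndufaf5 in the late 4-cell, Ndufaf6 and Ndufaf8 in the late 8-cell and Ndufaf3 in the blastocyst stage. The summed level of the subunits was 292 ± 33.6 CPM (SD, n = 3) in early 2-cell, 2069 ± 458 CPM (n = 4) in early 4-cell, 3538 ± 523 CPM (n = 6) in morula and 8323 ± 786 CPM (n = 4) in blastocyst libraries. The assembly factors summed to 392 ± 38.7, 504 ± 58.5, 301 ± 17.5 and 137 ± 28.0 CPM at the same stages. Their share of the summed CPM of the complex I genes, which a single scaling factor per library leaves as it is, was 52.9 ± 1.22% in early 2-cell, 38.9 ± 2.22% in mid 2-cell, 24.7% in late 2-cell, 19.2% in early 4-cell, 7.56% in morula and 1.54 ± 0.192% in blastocyst libraries. Ndufaf4 alone averaged 319 CPM in early 2-cell libraries and so made up most of the early share. Ndufaf1, Ndufaf5, Ndufaf6, Ndufaf7 and Ndufaf8 had their lowest standard mean in early 2-cell libraries.

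**Figure D1:**
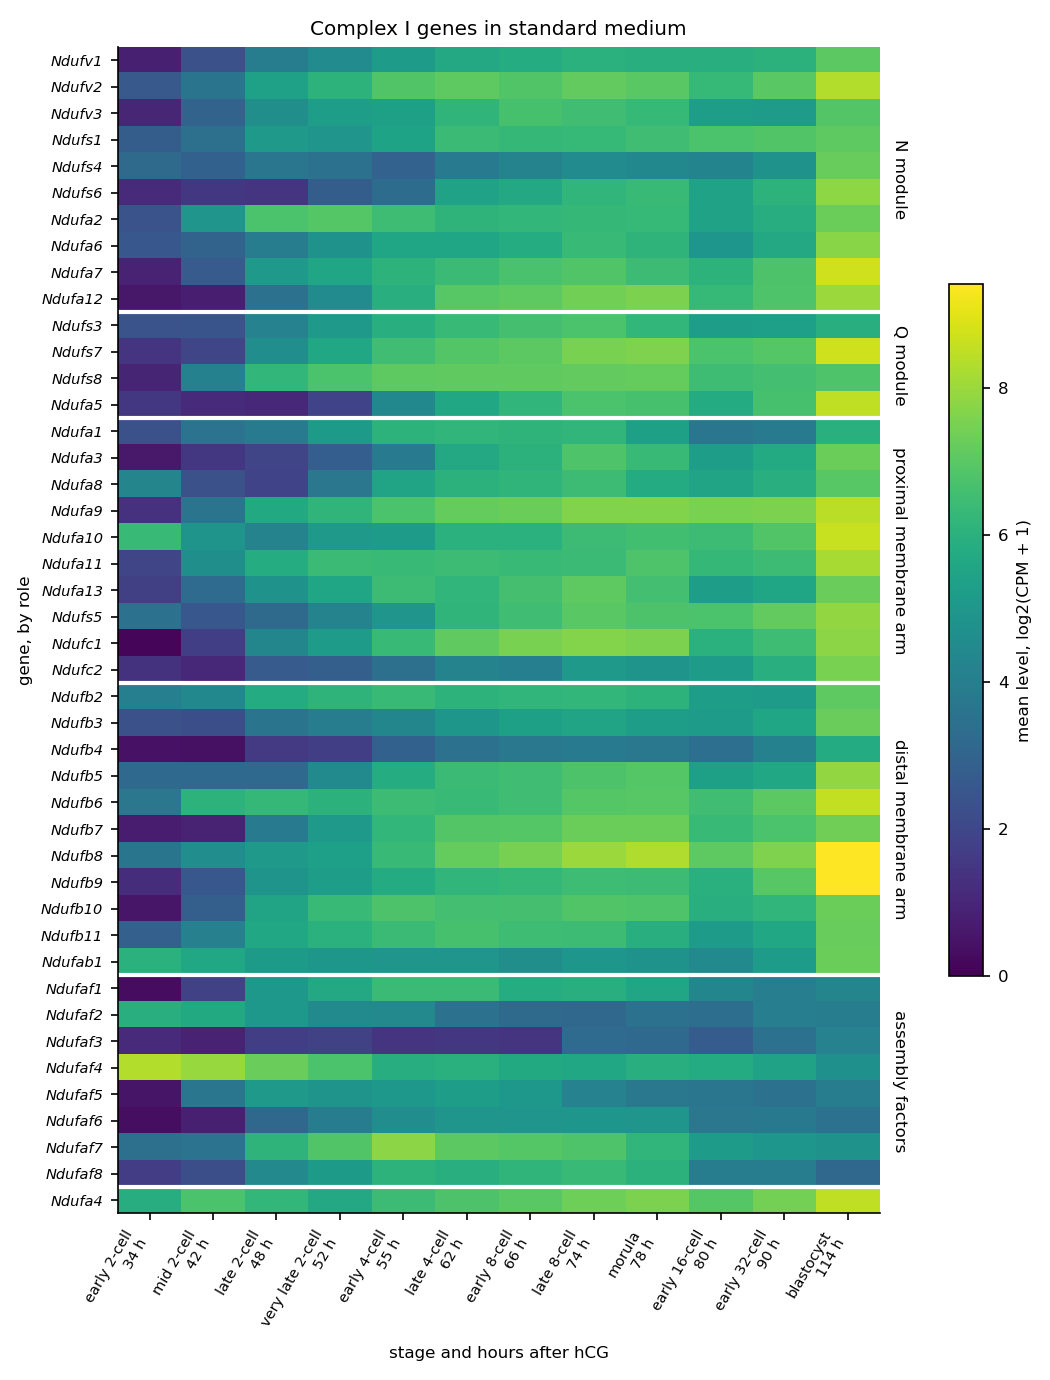
Mean level of the complex I genes shown, as log2(CPM + 1), in the 12 standard groups ordered by hours after hCG, with genes grouped by role. Most subunits are brightest (highest) in the blastocyst column, while Ndufaf2 and Ndufaf4 are highest in early 2-cell embryos.

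**Figure D2:**
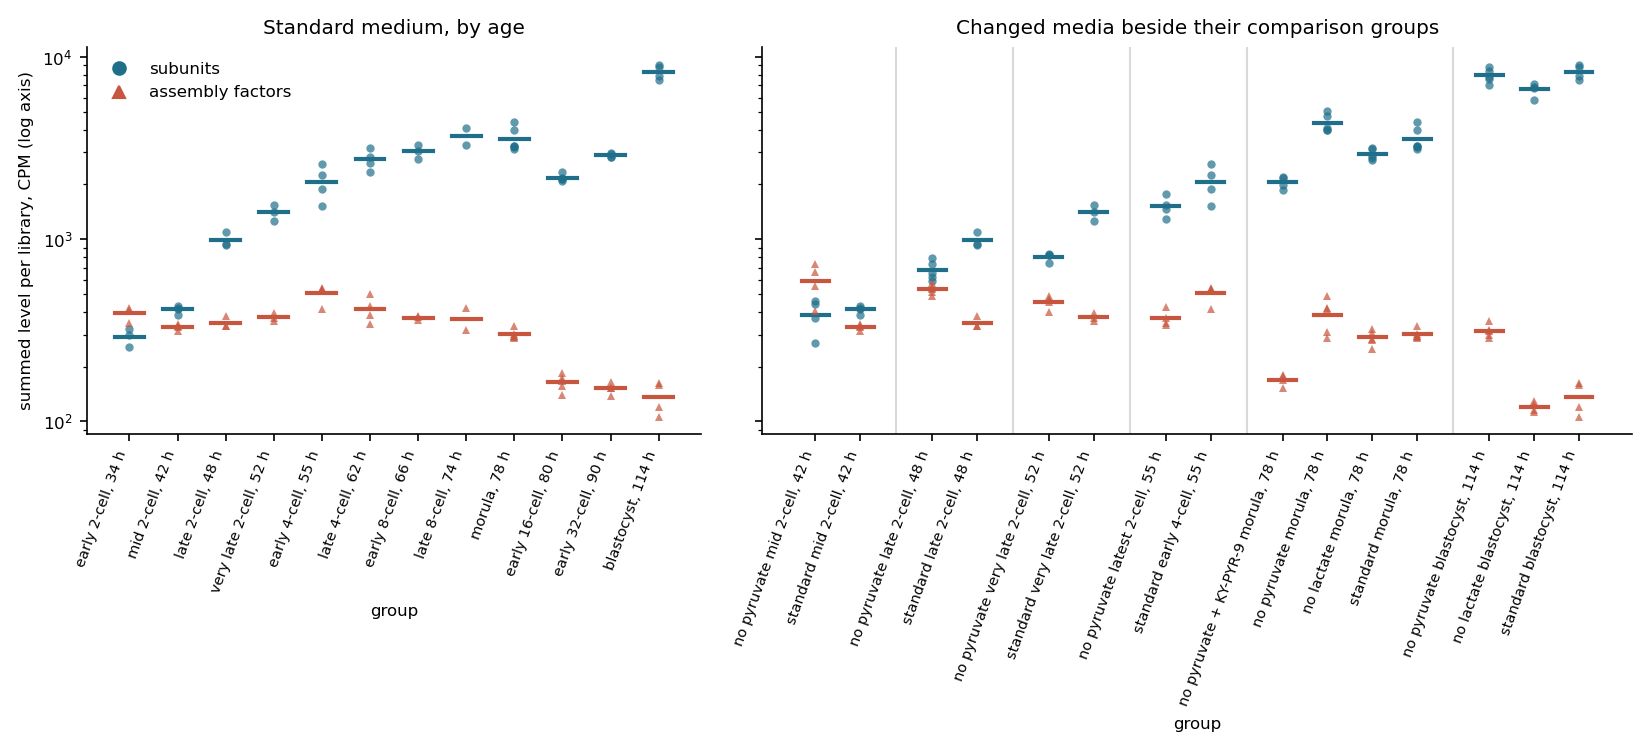
Summed level per library of the 36 subunits and the 8 assembly factors, in CPM on a log axis, by age in standard medium (left) and in changed media beside their comparison groups (right). In standard medium the subunit sum averages 292 CPM in early 2-cell and 8323 CPM in blastocyst libraries, and the assembly factor sum 392 and 137 CPM.

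Per length of transcript, the early 2-cell store was led by Ndufa4 (93.4 CPM per kb), Ndufaf4 (87.7 CPM per kb), Ndufaf2 (86.8 CPM per kb) and Ndufa10 (39.3 CPM per kb), and Ndufc1 was lowest at 0.0897 CPM per kb. In human cells NDUFAF4 acts with NDUFAF3 in building the Q module, and NDUFAF2 holds the place that NDUFA12 later takes. Ndufa10 is a matrix subunit of the membrane arm related to nucleoside kinases. In blastocysts the order was led by the distal arm subunits Ndufb8 (1002 CPM per kb) and Ndufb9 (950.0 CPM per kb) and by Ndufa7 of the N module (795 CPM per kb), with Ndufaf4 lowest at 7.01 CPM per kb. Ndufb8 and Ndufb9 overlap predicted coding genes on the same strand, so their counts may hold reads of those genes. Ndufab1, Ndufb4, Ndufa11 and Ndufs6 have near copies in the table, and their counts are uncertain too.

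Between early and mid 2-cell embryos, 25 genes were higher and 3 lower in mid 2-cell libraries, where 42.9% and 7.71% of all genes were called. The median difference was 0.56 on the log2 scale for the complex I genes and 0.43 for all genes. Under median-ratio scaling the count was 18 higher and 13 lower, and under quantile scaling 14 higher and 16 lower, so no direction of the family holds for this step. Single genes moved far more than the family. Ndufs8, a Q module core subunit that carries iron-sulfur clusters, had 20.0, 16.0, 12.7 and 17.8 CPM in mid 2-cell libraries, against 0.895, 1.20 and 0.841 CPM in early 2-cell libraries. The groups lie far apart (log2 difference 3.14, SE 0.19, adjusted p = 8.43e-18 by limma). Ndufaf5, whose human product hydroxylates an arginine of NDUFS7, had 11.2, 10.8, 8.99 and 16.2 CPM in mid 2-cell libraries, against 0.373, 0.535 and 0.481 CPM in early 2-cell libraries. All mid 2-cell values were above all early ones (log2 difference 3.10, SE 0.22, adjusted p = 4.52e-16). Genes printed for the largest differences were chosen among those whose groups did not overlap. For them, here and below, the lack of overlap follows from that rule and is no separate evidence.

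The 3 genes that fell were Ndufa8, Ndufa10 and Ndufs5, all of the proximal membrane arm. Ndufa8, a cysteine-rich subunit on the intermembrane-space side, had 4.61, 2.87, 5.78 and 2.93 CPM in mid 2-cell libraries, against 15.8, 19.7 and 20.1 CPM in early 2-cell libraries (log2 difference -1.99, SE 0.18, adjusted p = 1.12e-12). Ndufa10 had 22.4, 23.5, 38.0 and 30.3 CPM in mid 2-cell libraries, against 75.3, 82.9 and 80.1 CPM in early 2-cell libraries (log2 difference -1.47, SE 0.16, adjusted p = 2.18e-10). Neither gene had overlapping groups.

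From mid to late 2-cell, the rise was broad. In late 2-cell libraries 33 genes were higher and 5 lower, against 43.4% and 15.6% of all genes, and the median difference was 1.51 for the complex I genes and 0.39 for all genes. Median-ratio scaling gave 26 higher and 9 lower. All 7 core subunits that are encoded in the nucleus rose, with log2 differences between 1.61 for Ndufs1 and 2.67 for Ndufs7, the subunit that holds the last iron-sulfur cluster before ubiquinone. By module, 9 of 10 N module, 4 of 5 Q module, 6 of 10 proximal arm and 8 of 11 distal arm subunits were higher, and 6 of 8 assembly factors.

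Ndufaf1, part of the assembly complex of the membrane arm in human cells, had 31.8, 34.7 and 27.9 CPM in late 2-cell libraries, against 3.54, 3.54, 1.12 and 2.26 CPM in mid 2-cell libraries (log2 difference 3.23, SE 0.22, adjusted p = 5.43e-16). Ndufb7, a cysteine-rich subunit of the distal arm, had 15.4, 12.6 and 13.4 CPM in late 2-cell libraries, against 0.62, 0.98, 0.535 and 1.41 CPM in mid 2-cell libraries (log2 difference 2.99, SE 0.19, adjusted p = 1.41e-16). In both genes the lowest late library was several times the highest mid one. Ndufaf4 went the other way, with 168, 138 and 150.2 CPM in late 2-cell libraries, against 236, 241, 266 and 247 CPM in mid 2-cell libraries (log2 difference -0.70, SE 0.17, adjusted p = 0.000582). Ndufaf2, Ndufa10 and Ndufa4 also fell, by 0.70, 0.65 and 0.50.

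Early 4-cell embryos were set against late 2-cell embryos next. There 33 genes were higher and 4 lower in early 4-cell libraries, against 22.7% and 38.9% of all genes, and the median was 1.23 for the complex I genes and -0.23 for all genes. All 10 proximal arm subunits rose. Ndufa8 had 31.6, 46.2, 49.3 and 48.6 CPM in early 4-cell libraries, against 2.36, 2.81 and 2.99 CPM in late 2-cell libraries (log2 difference 3.58, SE 0.18, adjusted p = 3.19e-20). Set beside its early 2-cell level, Ndufa8 was first lowered and then raised. Ndufa5, an accessory subunit of the Q module, had 10.5, 29.1, 24.7 and 15.9 CPM in early 4-cell libraries, against 1.25, 0.904 and 1.28 CPM in late 2-cell libraries (log2 difference 3.21, SE 0.27, adjusted p = 3.08e-13). Ndufaf4 continued its decline, with 46.5, 58.1, 56.8 and 70.3 CPM in early 4-cell libraries, against 168, 138 and 150.2 CPM in late 2-cell libraries (log2 difference -1.39, SE 0.17, adjusted p = 5.75e-09). Of 38 nuclear subunits of complexes II to V, 30 rose and 3 fell in this step, while 5 of 7 mitochondrially encoded ND genes fell.

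Early 8-cell embryos, set against early 4-cell embryos, had 24 genes higher and 3 lower, where 15.5% and 30.9% of all genes were called (median 0.55 for the complex I genes, -0.15 for all genes). Of the 36 subunits 23 rose and none fell. None of the 8 assembly factors rose and 3 fell, a share close to that of all genes that fell. At an unadjusted limma p under 0.05 the subunits stood at 24 higher and none lower and the assembly factors at none higher and 3 lower, and under median-ratio scaling 1 assembly factor rose and 2 fell. Ndufs6, a zinc-binding accessory subunit of the N module, had 54.5, 49.0 and 49.1 CPM in early 8-cell libraries, against 7.28, 11.7, 8.69 and 8.17 CPM in early 4-cell libraries (log2 difference 2.40, SE 0.21, adjusted p = 2.76e-12). Ndufaf2 had 7.65, 10.9 and 7.002 CPM in early 8-cell libraries, against 14.8, 25.2, 21.8 and 20.0 CPM in early 4-cell libraries (log2 difference -1.17, SE 0.23, adjusted p = 4.75e-05). The groups did not overlap for either gene. The difference between the 2 sets of genes was not tested.

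Morulae differed little from early 8-cell embryos. In morula libraries 9 genes were higher and 5 lower, against 10% and 15.8% of all genes, with medians of 0.17 and -0.0044. Ndufaf3, the partner of NDUFAF4 in human cells, ranged from 6.23 to 9.94 CPM (median 8.53) in morula libraries, against 1.20 and 3.86 CPM in early 8-cell libraries 2 and 3 and a listed 0 in library 1 (log2 difference 2.06, SE 0.30, adjusted p = 1.2e-06). Ndufaf5 ranged from 8.77 to 15.9 CPM (median 13.6) in morula libraries, against 27.6, 28.4 and 37.7 CPM in early 8-cell libraries (log2 difference -1.25, SE 0.20, adjusted p = 6.89e-06). Ndufa1, a small membrane subunit encoded on the X chromosome, ranged from 26.5 to 55.4 CPM (median 37.2) in morula libraries, against 59.4, 71.4 and 75.0 CPM in early 8-cell libraries (log2 difference -0.79, SE 0.20, adjusted p = 0.0021). By the rule for printing genes, no pair of groups overlapped for these 3 genes, and without morula libraries 1 and 2 their differences were 1.97, -1.36 and -0.89. Without those libraries 9 genes were higher and 6 lower. The count of genes higher was 3 when only these groups were fitted, 5 without early 8-cell library 1 and 4 without library 2.

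Embryos labelled early 16-cell were collected only slightly later than those labelled morula, yet their complex I levels were lower. In early 16-cell libraries 1 gene was higher and 29 lower, against 9.83% and 27.7% of all genes, and the median was -0.68 for the complex I genes and -0.13 for all genes. Without morula libraries 1 and 2 the count was 1 higher and 24 lower, and under median-ratio scaling 3 higher and 19 lower. Ndufaf8, whose human product stabilises NDUFAF5, had 9.88, 15.1, 16.0, 15.7 and 15.0 CPM in early 16-cell libraries, against 46.5 to 88.8 CPM (median 64.3) in morula libraries (log2 difference -2.09, SE 0.18, adjusted p = 1.9e-12, and -1.96 without morula libraries 1 and 2). Of 38 nuclear subunits of complexes II to V, 17 rose and 11 fell in the same step. The labels give these stages separate names, and how the embryos of each were obtained was not analysed here.

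The climb resumed in early 32-cell embryos, where 19 genes were higher and none lower than in early 16-cell embryos, against 8.49% and 12.2% of all genes (median 0.42 for the complex I genes, -0.01 for all genes). At an unadjusted limma p under 0.05 the counts were 27 higher and 1 lower. Without early 16-cell library 1 or library 5 the count was 12 higher, and with only these groups fitted it was 29 higher and 2 lower. Ndufb9, a distal arm subunit of the LYR family, had 125, 126, 119 and 123 CPM in early 32-cell libraries, against 61.0, 59.8, 73.3, 57.0 and 56.9 CPM in early 16-cell libraries (log2 difference 0.99, SE 0.15, adjusted p = 5.14e-06). The 32-cell libraries lie within a few CPM of each other and all lie above the 16-cell ones.

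Nearly all subunits rose in the step to the blastocyst. In blastocyst libraries 35 genes were higher and 2 lower than in early 32-cell libraries, against 12.6% and 29.1% of all genes, and the median was 1.43 for the complex I genes and -0.14 for all genes. Of the 36 subunits 34 rose and none fell (median 1.60), all 11 distal arm and all 10 proximal arm subunits among them. Ndufs1 and Ndufs8, both core subunits, did not pass, with log2 differences of 0.18 and 0.22. Of the 8 assembly factors none rose and 2 fell (median -0.17), although median-ratio scaling gave 4 higher and none lower. At an unadjusted limma p under 0.05, 34 subunits were higher and none lower, and 1 assembly factor was higher and 2 lower. All 38 nuclear subunits of complexes II to V rose, while 4 of the 7 mitochondrially encoded ND genes fell.

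Ndufb9 had 645, 723, 715 and 593 CPM in blastocyst libraries, against 125, 126, 119 and 123 CPM in early 32-cell libraries (log2 difference 2.43, SE 0.16, adjusted p = 4.25e-16). Ndufs4, an N module subunit whose loss causes a Leigh-like disease in mice, had 130.3, 124, 154 and 180.4 CPM in blastocyst libraries, against 25.6, 26.0, 27.4 and 27.2 CPM in early 32-cell libraries (log2 difference 2.41, SE 0.18, adjusted p = 1.13e-14). Ndufs4 had stayed between 6.68 and 26.5 CPM on average in all earlier stages. The assembly factors that fell were Ndufaf8 and Ndufaf4. Ndufaf8 had 9.11, 12.4, 5.67 and 5.54 CPM in blastocyst libraries, against 15.4, 14.1, 13.3 and 16.7 CPM in early 32-cell libraries (log2 difference -0.85, SE 0.21, adjusted p = 0.000674, but -0.30 and adjusted p = 0.277 under median-ratio scaling). Ndufaf4 had 28.5, 27.0, 20.6 and 25.7 CPM in blastocyst libraries, against 40.4, 43.6, 37.4 and 46.5 CPM in early 32-cell libraries (log2 difference -0.71, SE 0.16, adjusted p = 0.000345). That fall did not pass under median-ratio scaling (-0.11, adjusted p = 0.701), quantile scaling (-0.28, adjusted p = 0.172) or removal of a length trend (-0.35, adjusted p = 0.0875).

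Without pyruvate, embryos at 42 h differed from standard mid 2-cell embryos in both directions. In the no pyruvate libraries 7 genes were higher and 17 lower, against 5.58% and 31.2% of all genes, and the median was -0.15 for the complex I genes and -0.26 for all genes. Median-ratio scaling gave 16 higher and 12 lower, and quantile scaling 18 higher and 9 lower, so the balance of the family turned with the scaling. Of the 7 core subunits 5 were lower and Ndufs3 was higher, against 4 lower and 1 higher under median-ratio scaling and 2 lower and 1 higher under quantile scaling. Ndufaf5 had 0.442, 1.06, 0.922 and 1.07 CPM in no pyruvate libraries, against 11.2, 10.8, 8.99 and 16.2 CPM in standard libraries (log2 difference -2.76, SE 0.26, adjusted p = 5.9e-11). Ndufs8 had 3.49, 2.70, 2.68 and 2.80 CPM in no pyruvate libraries, against 20.0, 16.0, 12.7 and 17.8 CPM in standard libraries (log2 difference -2.16, SE 0.18, adjusted p = 2.35e-12). Ndufa8 had 20.3, 26.6, 13.8 and 15.2 CPM in no pyruvate libraries, against 4.61, 2.87, 5.78 and 2.93 CPM in standard libraries (log2 difference 1.98, SE 0.24, adjusted p = 1.68e-08). For all 3 genes the no pyruvate values lie on the side of the standard early 2-cell libraries, which averaged 0.463 CPM for Ndufaf5, 0.98 CPM for Ndufs8 and 18.5 CPM for Ndufa8. These genes also led the step from early to mid 2-cell, which uses the same standard mid 2-cell libraries. Ndufaf4 and Ndufaf2 averaged 476 and 96.9 CPM without pyruvate, above their early 2-cell means of 319 and 58.8 CPM. Likeness to the early 2-cell stage was not tested.

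At 48 h, 11 genes were higher and 27 lower in no pyruvate than in standard late 2-cell libraries, against 22.6% and 34.3% of all genes, with a median of -0.86 for the complex I genes and -0.14 for all genes. All 7 core subunits were lower, also under median-ratio and quantile scaling, between -0.89 for Ndufs3 and -2.16 for Ndufs7. Ndufaf1 had 4.16, 2.15, 2.92, 4.38 and 5.07 CPM in no pyruvate libraries, against 31.8, 34.7 and 27.9 CPM in standard libraries (log2 difference -2.81, SE 0.24, adjusted p = 6.32e-12). Ndufa10 had 67.0, 64.5, 80.2, 58.3 and 50.9 CPM in no pyruvate libraries, against 16.6, 19.8 and 16.1 CPM in standard libraries (log2 difference 1.80, SE 0.18, adjusted p = 1.01e-10). These groups are separated by wide gaps. Ndufs6 had 5.50, 6.32, 5.60, 8.43 and 7.29 CPM in no pyruvate libraries, against 2.01, 1.54 and 1.74 CPM in standard libraries (log2 difference 1.46, SE 0.27, adjusted p = 1.8e-05). Unlike Ndufa10, Ndufs6 was low in standard early 2-cell libraries too (1.19 CPM).

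At 52 h, 6 genes were higher and 30 lower in no pyruvate than in standard very late 2-cell libraries, against 31.9% and 31.3% of all genes, with a median of -0.99 for the complex I genes and 0.08 for all genes. Here the split changed little under the other scalings (6 or 7 higher, 28 to 30 lower). The genes that were higher included both assembly factors that led the early 2-cell store. Ndufaf4 had 274, 323, 353 and 319 CPM in no pyruvate libraries, against 114, 91.2 and 114 CPM in standard libraries (log2 difference 1.57, SE 0.16, adjusted p = 3.11e-10). Ndufaf2 had 70.3, 86.7, 72.7 and 69.7 CPM in no pyruvate libraries, against 24.0, 22.8 and 18.3 CPM in standard libraries (log2 difference 1.74, SE 0.23, adjusted p = 4.2e-08). Ndufb7 had 3.43, 3.62, 6.21 and 4.02 CPM in no pyruvate libraries, against 36.1, 35.3 and 27.0 CPM in standard libraries (log2 difference -2.68, SE 0.27, adjusted p = 2.04e-10). No values overlapped between the groups for these genes.

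At 55 h the no pyruvate embryos were still at the 2-cell stage and the standard ones were early 4-cell embryos, so medium and stage cannot be told apart. In the no pyruvate libraries 4 genes were higher and 24 lower, against 37.7% and 19.5% of all genes (median -0.55 for the complex I genes, 0.27 for all genes). The count higher was 2 under quantile scaling or with a replicate block, and 1 under median-ratio scaling, after removal of a length trend or with only these groups fitted. Ndufa5 had 2.03, 4.45, 2.84 and 3.01 CPM in no pyruvate libraries, against 10.5, 29.1, 24.7 and 15.9 CPM in standard 4-cell libraries (log2 difference -2.30, SE 0.28, adjusted p = 1.18e-08). Ndufaf4 had 114, 124, 173 and 127 CPM in no pyruvate libraries, against 46.5, 58.1, 56.8 and 70.3 CPM in standard 4-cell libraries (log2 difference 1.20, SE 0.15, adjusted p = 2.29e-08). The share of assembly factors in the summed CPM of the complex I genes, 53.9% at 42 h without pyruvate, had come down to 19.2% at 55 h, and the standard 4-cell libraries also had 19.2%. At 42 h Ndufaf4 alone averaged 476 of the 588 CPM of the assembly factors without pyruvate, so the share at 42 h was mostly Ndufaf4. Its later fall also came with more subunit transcripts. The subunits summed to 386 CPM at 42 h and 1522 CPM at 55 h without pyruvate, and the assembly factors to 371 CPM at 55 h.

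**Figure D3:**
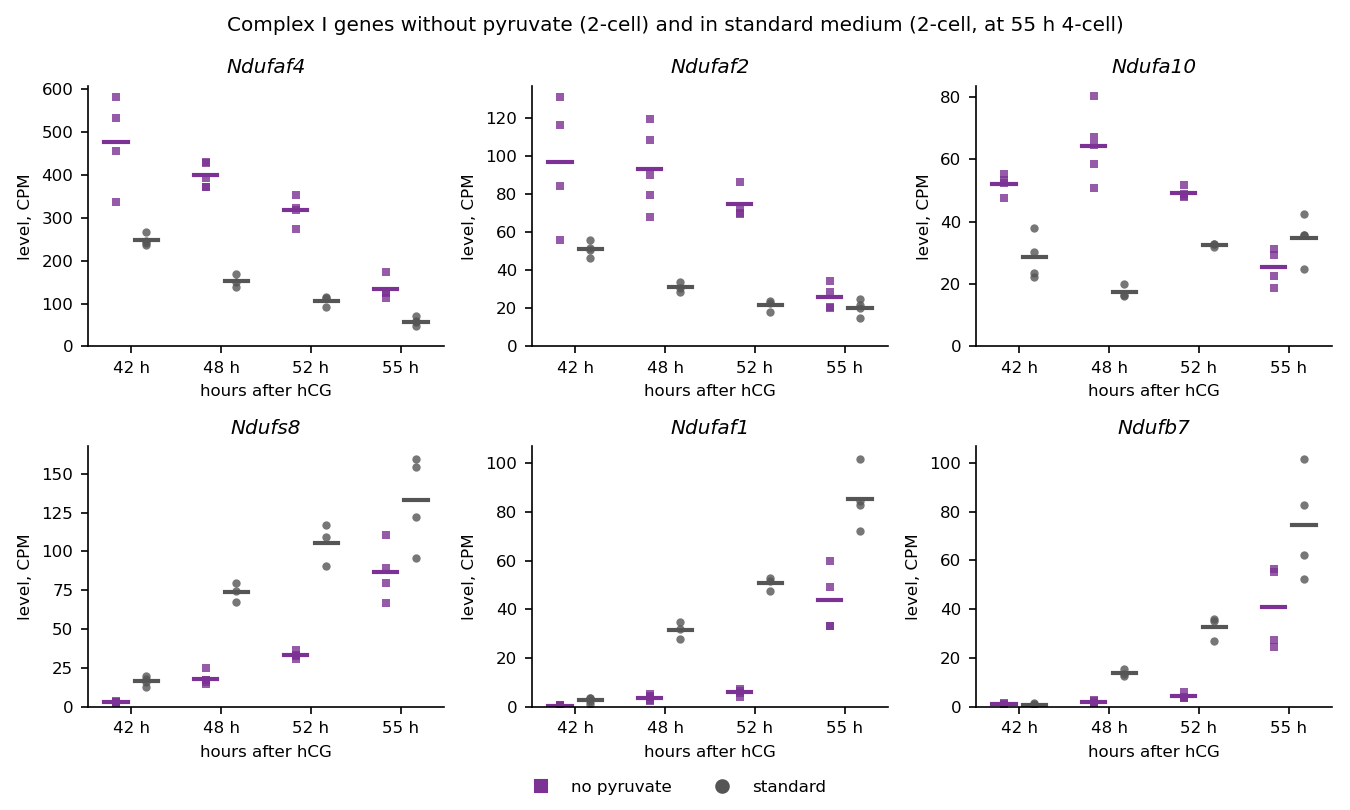
Level in CPM of Ndufaf4, Ndufaf2, Ndufa10, Ndufs8, Ndufaf1 and Ndufb7 in every library without pyruvate (squares, left) and in standard medium (circles, right) at 42, 48, 52 and 55 h after hCG, with a bar at each mean. Ndufaf4 averages 476, 399, 317 and 134 CPM without pyruvate, against 248, 152, 106 and 57.9 CPM in standard medium, and Ndufb7 is lower without pyruvate at 48 and 52 h.

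Most genes of the oocyte marker list were higher without pyruvate in these 4 comparisons. Of its 7 genes 4 were higher and 1 lower at 42 h, 6 and 1 at 48 h, 6 and 1 at 52 h, and 5 and none at 55 h. All 7 of its genes were detected, and their sum ranged from 32530 to 39080 CPM without pyruvate, against 22990 to 26520 CPM in standard medium at 42 h, from 15530 to 21600 CPM against 3908 to 4294 CPM at 48 h, from 4760 to 5421 CPM against 1086 to 1172 CPM at 52 h, and averaged 825.6 CPM against 371.1 CPM at 55 h. Its part in the complex I results was not tested. Subunits of complexes II to V moved alongside: of 38, at 52 h 2 were higher and 29 lower without pyruvate.

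The changed media of morulae and of blastocysts are set against the same standard libraries, and the no pyruvate morulae also serve the KY-PYR-9 comparison, so these results are not independent of each other. In morulae without pyruvate 16 genes were higher and none lower than in standard morulae, against 32.8% and 6.62% of all genes. The median was 0.31 for the complex I genes and 0.28 for all genes, and the share of genes called was close to the background. At an unadjusted limma p under 0.05 the counts were 21 higher and none lower. The count higher was 27 without standard morula libraries 1 and 2, 7 under median-ratio or quantile scaling, and 3 with 2 lower after removal of a length trend. Ndufc2, a membrane arm subunit, had 38.5, 50.4, 58.7, 47.05 and 50.4 CPM in no pyruvate libraries, against 21.9 to 36.0 CPM (median 27.0) in standard libraries (log2 difference 0.78, SE 0.15, adjusted p = 0.000239, and 0.91 without standard libraries 1 and 2). Ndufv2, which holds an iron-sulfur cluster beside the NADH site, had 203, 219, 214, 193 and 194 CPM in no pyruvate libraries, against 86.8 to 184 CPM (median 126) in standard libraries (log2 difference 0.70, SE 0.15, adjusted p = 0.00065). The Ndufv2 difference was 0.70 without standard libraries 1 and 2 and 0.32 (adjusted p = 0.0716) after removal of the length trend. Neither pair of groups overlapped. All 7 mitochondrially encoded ND genes were lower in these morulae, with a median of -1.71. Their sums overlapped, with 988.6 to 7302 CPM in no pyruvate and 4325 to 24300 CPM in standard libraries. For this list only the result with all standard libraries is given. Trophectoderm genes summed to 260.3 to 1100 CPM without pyruvate and averaged 185.5 CPM in standard morulae. Of the 6 trophectoderm genes 2 were higher, 1 was lower and 3 did not pass (median 0.42). Their part in the result was not tested.

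Without lactate, morulae had no gene higher and 5 lower, against 8.37% and 3.42% of all genes (median -0.18 for the complex I genes, 0.10 for all genes). At an unadjusted limma p under 0.05 none was higher and 14 were lower. The count lower was 8 without standard morula library 5 and 3 without no lactate library 5, and without standard libraries 1 and 2 it was 1 higher and 5 lower. Ndufa6, a LYR protein of the N module, had 35.2, 43.4, 37.6, 34.0 and 42.4 CPM in no lactate libraries, against 57.1 to 101 CPM (median 60.8) in standard libraries (log2 difference -0.80, SE 0.15, adjusted p = 0.00169, and -0.61 without standard libraries 1 and 2). Ndufc1 of the proximal arm had 88.8, 117, 103, 94.8 and 93.8 CPM in no lactate libraries, against 118 to 366 CPM (median 148) in standard libraries (log2 difference -0.79, SE 0.23, adjusted p = 0.0275). The Ndufc1 call is fragile. It was lost without standard libraries 1 and 2 (-0.43, adjusted p = 0.0616), without the filter on low values (-0.79, adjusted p = 0.0807) and with only these groups fitted (-0.79, adjusted p = 0.0599). It was also lost without standard library 2 or no lactate library 1, 4 or 5, with differences between -0.72 and -0.77 and adjusted p between 0.0581 and 0.0696.

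KY-PYR-9 was compared within medium lacking pyruvate. In KY-PYR-9 morulae 1 gene was higher and 41 lower than in no pyruvate morulae without it, against 8.61% and 67.1% of all genes. The median was -1.20 for the complex I genes and -0.90 for all genes, so most of the shift was common to the genes tested. Under median-ratio scaling the count was 7 higher and 13 lower, under quantile scaling 3 higher and 20 lower, and after removal of a length trend 4 higher and 21 lower. Ndufaf8 had 13.3, 15.2, 14.2 and 12.4 CPM in KY-PYR-9 libraries, against 88.5, 102, 131, 60.6 and 49.4 CPM in no pyruvate libraries (log2 difference -2.48, SE 0.22, adjusted p = 3.72e-09). Ndufv1, the core subunit that binds NADH, had 24.0, 23.0, 28.1 and 23.3 CPM in KY-PYR-9 libraries, against 66.6, 72.0, 57.9, 96.6 and 96.6 CPM in no pyruvate libraries (log2 difference -1.60, SE 0.22, adjusted p = 1.69e-06). Both differences exceed the shift of the median gene. The gene that rose was Ndufaf5, with 28.9, 31.8, 33.0 and 33.8 CPM in KY-PYR-9 libraries, against 14.4, 15.2, 15.1, 7.27 and 6.92 CPM in no pyruvate libraries (log2 difference 1.44, SE 0.23, adjusted p = 1.22e-05). Ndufaf5 and Ndufaf8, whose products act together in human cells, thus went opposite ways. For Ndufaf8, Ndufv1 and Ndufaf5, no pyruvate libraries 4 and 5 lay apart from libraries 1 to 3. A fit without both of them was not run.

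Other lists differed in whether they moved with the complex I genes here. Assembly factors outside the naming rule were higher in 0 and lower in 10 of 12 tested (median -1.13), regulators of mitochondrial genes in 0 and 5 of 6 (median -1.13), and near copies of complex I genes in 0 and 5 of 5 (median -1.09). Of 38 nuclear subunits of complexes II to V, 8 were higher and 15 lower in KY-PYR-9 morulae (median -0.16), and all 7 mitochondrially encoded ND genes were higher (median 2.82). The 100 highest genes held 36.4% of the values in KY-PYR-9 libraries, against 21.8% in no pyruvate libraries. Trophectoderm genes summed to 65.68 CPM with KY-PYR-9, against 563.9 CPM without it, and the part of either in the result was not tested.

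In blastocysts without pyruvate, most genes tested were higher and most subunits were not. Among the 45 complex I genes 15 were higher and 10 lower than in standard blastocysts, against 80.8% and 7.14% of all genes, and the median was 0.08 for the complex I genes and 1.15 for all genes. Of the 36 subunits 9 were higher and 9 lower (median 0.05). Of the 8 assembly factors 6 were higher and 1 lower (median 1.33), close to the share and the median of all genes, and the difference between the 2 sets was not tested. Median-ratio scaling moved every median down: no subunit was higher and 36 were lower (median -1.29), and 1 assembly factor was higher and 2 lower (median 0.07). Under quantile scaling 1 subunit was higher and 19 lower, and 1 assembly factor higher and 2 lower. The assembly factors' share of the summed CPM of the complex I genes ranged from 3.50% to 3.72% in no pyruvate blastocysts and from 1.28% to 1.72% in standard blastocysts.

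Ndufaf6, needed for the Q module in human cells, had 38.8, 32.2, 36.4, 29.1 and 34.4 CPM in no pyruvate blastocysts, against 10.4, 14.5, 8.20 and 8.41 CPM in standard blastocysts (log2 difference 1.65, SE 0.17, adjusted p = 3.97e-08, but 0.27 and adjusted p = 0.133 under quantile scaling). Ndufaf4 had 88.6, 81.0, 72.5, 70.5 and 71.3 CPM in no pyruvate blastocysts, against 28.5, 27.0, 20.6 and 25.7 CPM in standard blastocysts (log2 difference 1.56, SE 0.15, adjusted p = 2.14e-08, but 0.25 and adjusted p = 0.135 under median-ratio scaling and 0.34 and adjusted p = 0.0539 after removal of a length trend). In CPM, every no pyruvate value of both genes was above every standard one. Ndufa7 had 294, 224, 225, 232 and 263 CPM in no pyruvate blastocysts, against 417, 450.0, 407 and 405 CPM in standard blastocysts (log2 difference -0.77, SE 0.14, adjusted p = 5.84e-05). Ndufc2 had 126, 119, 98.4, 93.5 and 103 CPM in no pyruvate blastocysts, against 196, 142, 164 and 220.1 CPM in standard blastocysts (log2 difference -0.72, SE 0.17, adjusted p = 0.000542). Both falls are larger when set against the rise of the median gene. The assembly factors outside the naming rule were higher in 12 of 12 tested (median 1.42), and nuclear subunits of complexes II to V were higher in 1 and lower in 26 of 38 (median -0.69).

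Markers and composition differed between these blastocysts. The 100 highest genes held 24.5% of the values in no pyruvate libraries, against 42.4% in standard libraries, and trophectoderm genes summed to 9241 CPM, against 17730 CPM. Of the trophectoderm genes 1 was higher and 3 of 6 lower. All 3 inner cell mass genes and all 3 primitive endoderm genes were higher, with sums of 155.2 CPM without pyruvate against 81.33 CPM in standard medium for the first list and 118.4 CPM against 34.38 CPM for the second. Their part in the results was not tested. The no pyruvate effect was also compared between the ages, as the difference at 114 h minus that at 78 h. In this contrast 7 genes were higher and 12 lower, against 46.9% and 12.5% of all genes, and the median was -0.23 for the complex I genes and 0.59 for all genes. Of the assembly factors 6 were higher and none lower, and of the subunits 1 was higher and 12 were lower, but under median-ratio scaling no assembly factor was higher and 2 were lower. Without standard morula libraries 1 and 2 the counts over the 45 genes were 8 higher and 19 lower.

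Ndufaf3 had the largest of these rises, with 54.9, 39.8, 38.9, 41.0 and 47.6 CPM in no pyruvate blastocysts, against 16.9, 21.0, 13.7 and 16.5 CPM in standard blastocysts. At the morula stage it had 4.66, 6.02, 5.17, 13.1 and 9.89 CPM without pyruvate, against 6.23 to 9.94 CPM in standard medium, and those groups overlap. The highest no pyruvate values there came from libraries 4 and 5. The effect at 114 h exceeded that at 78 h by 1.50 (SE 0.29, adjusted p = 5.27e-05, and 1.40 without standard morula libraries 1 and 2). It did not pass under median-ratio scaling (0.49, adjusted p = 0.163) or quantile scaling (0.61, adjusted p = 0.0724). For Ndufaf4 the excess was 1.27 (SE 0.19, adjusted p = 1.31e-06, and 1.26 without those libraries), which was 0.28 (adjusted p = 0.242) under median-ratio and 0.33 (adjusted p = 0.168) under quantile scaling. Ndufa7 turned the other way: at the morula stage it had 137, 138, 166, 110.4 and 93.3 CPM without pyruvate, against 71.0 to 107 CPM in standard medium, and in blastocysts it was lower without pyruvate. Its effect at 114 h was below that at 78 h by a log2 difference of -1.32 (SE 0.21, adjusted p = 2.63e-06, and -1.44 without standard morula libraries 1 and 2).

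Without lactate, blastocysts had no gene higher and 11 lower than standard blastocysts, against 14% and 9.29% of all genes (median -0.26 for the complex I genes, 0.07 for all genes). At an unadjusted limma p under 0.05 the counts were 1 higher and 19 lower. The count lower was 5 without standard library 1, 6 without standard library 2, 18 without standard library 4, and 6 without no lactate library 2 or library 4. Ndufa12, the N module subunit that takes the place of NDUFAF2 in human cells, had 96.2, 99.8, 89.7 and 99.9 CPM in no lactate libraries, against 364, 320.2, 207 and 117 CPM in standard libraries (log2 difference -1.25, SE 0.25, adjusted p = 0.00167). Its standard values spread widely and its no lactate values lie close together below them. Ndufab1, the mitochondrial acyl carrier protein, had 99.5, 103, 109.7 and 85.2 CPM in no lactate libraries, against 199.6, 165, 138 and 120.4 CPM in standard libraries (log2 difference -0.62, SE 0.16, adjusted p = 0.0083), although a copy of Ndufab1 in the table leaves its count uncertain. None of the 5 Q module subunits passed. Of the 7 mitochondrially encoded ND genes 5 were higher, with a median of 1.60, and mitochondrial genes held 11.7 ± 2.08% of the values in no lactate (SD, n = 4) and 6.32 ± 3.91% in standard blastocysts (SD, n = 4). Of the 6 trophectoderm genes 5 were lower and none higher (median -1.24), and they summed to 10000 CPM without lactate, against 17730 CPM in standard medium. Of the 3 inner cell mass genes 2 were higher, and of the 3 primitive endoderm genes 1 was higher and 1 lower. The part of these markers in the result was not tested.

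The no lactate effect differed little between ages in these genes. In the contrast of 114 h minus 78 h 1 gene was higher and 2 lower, against 5.1% and 6.66% of all genes, with medians of -0.05 for the complex I genes and -0.05 for all genes. The gene that was higher was Ndufa4, with 482, 481, 518 and 373 CPM in no lactate blastocysts, against 382, 410.3, 309 and 352 CPM in standard blastocysts (excess over the morula effect 0.78, SE 0.25, adjusted p = 0.0376). This call is fragile. It was lost without standard morula libraries 1 and 2 (0.49, adjusted p = 0.0744), without the filter on low values (adjusted p = 0.0664), under median-ratio (adjusted p = 0.0987) or quantile scaling (adjusted p = 0.0901) and with only these groups fitted (adjusted p = 0.0764). It was also lost, with adjusted p between 0.0521 and 0.0902, without any 1 of standard blastocyst library 1 or 3, standard morula library 2, no lactate blastocyst library 1, 2 or 3, or no lactate morula library 1 or 4. Without standard morula libraries 1 and 2 the contrast had 1 gene higher and 6 lower. The count of genes lower was 6 without standard morula library 1, 4 without standard blastocyst library 4, 1 without no lactate morula library 2 or library 3, and 0 without standard blastocyst library 1 or library 2.

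**Figure D4:**
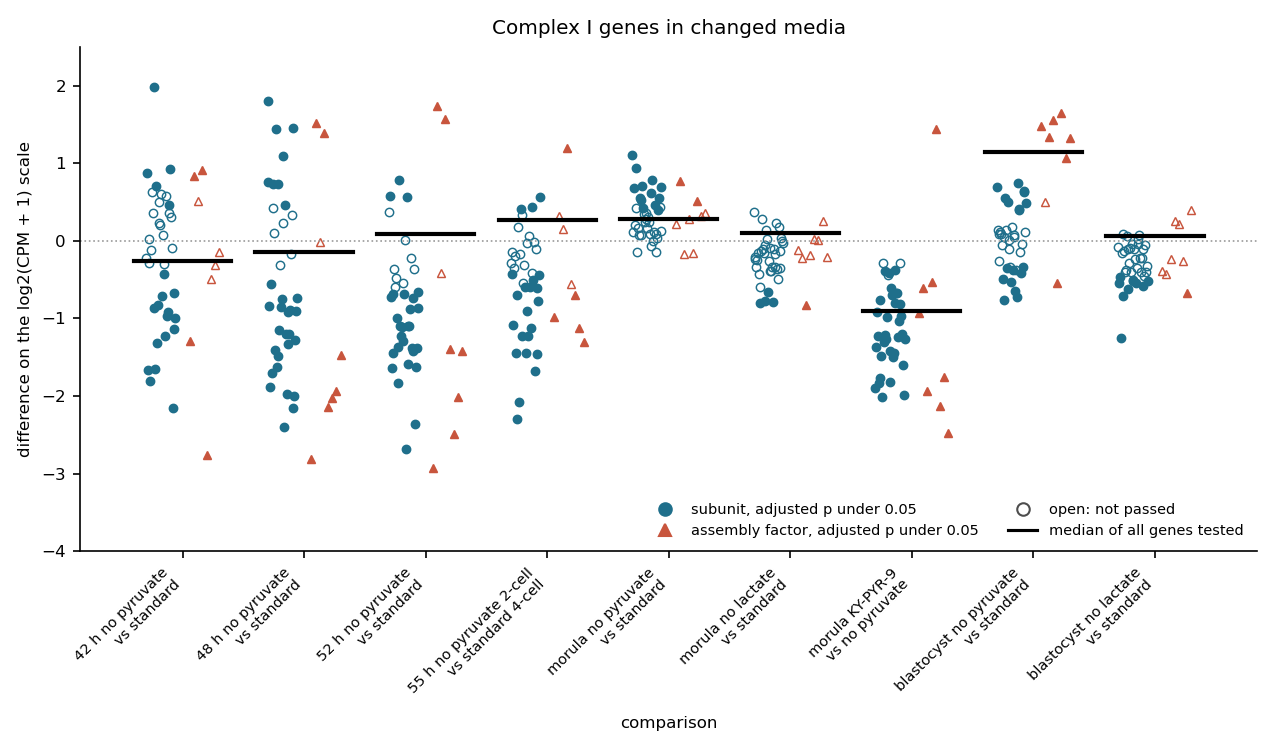
Difference on the log2(CPM + 1) scale of each of the 36 subunits and 8 assembly factors in the 9 comparisons of changed media, with circles for subunits and triangles for assembly factors, filled where adjusted p was under 0.05, and a line at the median of all genes tested. In no pyruvate blastocysts all subunits lie below the line at 1.15 while 5 assembly factors lie above it, and in KY-PYR-9 morulae most genes lie below the line at -0.90.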

How the data were processed

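Smart-seq2 libraries of mouse embryos were analysed from the table the authors deposited, whose values are CPM with an offset of 0.0001, which was subtracted. The reads were aligned to mm10 with STAR 2.6.1d, per the submitters' processing notes; the counting tool and annotation are not given in the sources used here. Of 91 columns, 85 were matched to samples by name and 6 were not used. Of 37394 entries, 26 with numeric names were left out (0.0458% to 0.194% of a library), leaving 37368 genes, of which 36810 matched GENCODE vM21. Tdh lacked 1 value. Depth, inferred from the smallest step between values, was 10.2 to 42.6 M reads (median 19.6 M); for a gene at 10 CPM, sampling of reads alone means a relative SD of 9.9% at the lowest depth and 4.84% at the highest. Whole reads were not recovered, since among values of up to 20 reads only 70.4% to 79.4% fell within 0.1 of an integer, and no count test was run.

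Groups came from the labels. Tests used log2(CPM + 1). Genes were kept when 3 or more libraries of the fit exceeded 1 CPM. The tool was limma 3.58.1 in R 4.3.3 (mean trend, Benjamini-Hochberg threshold 0.05), fitted once each to the standard groups, the 34 to 55 h groups, the 78 h groups, the 114 h groups, and both late ages together for the contrasts between them. A fold on this scale understates the change of low genes. There were 17 comparisons and 2 contrasts between ages. The procedure was tested on simulated data in which a small part of the genes changed, in both directions. That test does not cover comparisons where most genes shift 1 way. Genes to name were, per comparison, the nuclear core subunits, up to 3 members of the largest difference each way whose groups did not overlap and whose higher group averaged 5 CPM or more, up to 4 called against the majority, and the highest and lowest in a group; only part of these are printed. Alternatives were a smaller pseudocount (0.1), leaving out the filter, fitting only the groups compared, median-ratio and quantile scaling, removal of a length trend, a replicate block, and leaving out libraries. Members and lists were chosen with earlier results of these data known. Python 3.11.15, numpy 2.4.6, pandas 2.3.3 and matplotlib 3.10.9 were used for the other calculations. The values of 1 member are not reported here, although it is part of the counts and sums.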

Additional observations from a re-analysis of the deposited data

Results flagged for a closer look

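In 91 groups of 4 to 10 libraries, of the values printed for single genes and of the summed complex I level, 4 held a library that lay apart from the rest, and chance alone marks about 1 in 20 groups. The summed CPM of the 45 genes in very late 2-cell library 1 without pyruvate was 1244, and the next was 1440. Ndufaf8 had 9.88 CPM in early 16-cell library 1, where the next was 15.0 CPM, and it stayed far below the morula libraries with either. Ndufb9 had 73.3 CPM in early 16-cell library 3, where the next was 61.0 CPM. Ndufs8 had 3.49 CPM in mid 2-cell library 1 without pyruvate, where the next was 2.80 CPM.

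Some effects of the media differed between blastocysts at 114 h and morulae at 78 h by the limma test of the difference itself. For the absence of pyruvate 19 of the 45 genes passed, 7 higher and 12 lower, against 46.9% and 12.5% of all genes. Among them Ndufaf3 (1.50) and Ndufaf4 (1.27) were higher at 114 h and Ndufa7 (-1.32) lower. The Ndufaf3 and Ndufaf4 calls were lost under median-ratio and quantile scaling. For the absence of lactate 3 passed, where 5.1% of all genes were higher and 6.66% lower. Ndufa4 (0.78) was among them, with a call that several alternatives lost.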

How the results depend on the processing

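Relative to the median of all genes, which lay between -0.90 and 1.15 in CPM and between -0.24 and 0.14 under median-ratio scaling, the count of complex I genes called in the direction of most calls moved by over 1.5 times in these cases, and the cause was not tested. Under median-ratio scaling they were 19 lower in early 16-cell against morula, 7 higher in no pyruvate morulae, 13 lower with KY-PYR-9, 1 higher in no pyruvate and 17 lower in no lactate blastocysts, and 38 lower in the no pyruvate contrast between ages. Under quantile scaling they were 14 higher in mid against early 2-cell, 9 lower at 42 h, 7 higher in no pyruvate morulae, 20 lower with KY-PYR-9, 2 higher in no pyruvate blastocysts and 1 lower in the no lactate contrast. Without a length trend they were 3 higher in no pyruvate morulae, 21 lower with KY-PYR-9, 5 higher in no pyruvate blastocysts and 21 lower in the no pyruvate contrast. With only the groups compared they were 3 higher in morula against early 8-cell, 29 higher in early 32-cell against early 16-cell, 5 lower in no lactate blastocysts and 1 lower in the no lactate contrast. Without the filter 6 were lower in no lactate blastocysts and 1 in the no lactate contrast. Without standard morula libraries 1 and 2, 27 were higher in no pyruvate morulae, and 19 and 6 were lower in the no pyruvate and no lactate contrasts.

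Leaving out 1 library at a time gave 21 to 24, 31 to 33, 31 to 34, 20 to 25, 4 to 8, 26 to 30, 12 to 18 and 35 to 36 for the 8 steps of the standard course in order of age. It gave 15 to 17, 25 to 27, 27 to 32 and 20 to 26 for no pyruvate at 42, 48, 52 and 55 h. For the late stages it gave 13 to 20 in no pyruvate and 3 to 8 in no lactate morulae, 39 to 42 with KY-PYR-9, 13 to 15 in no pyruvate and 5 to 18 in no lactate blastocysts, and 10 to 14 and 0 to 6 for the contrasts. The libraries behind ranges wider than 1.5 times are named in the report. Replicate numbers did not pair the libraries (correlations of same-numbered libraries between -0.257 and 0.210), and with a replicate block 30 genes were lower at 52 h and 42 lower with KY-PYR-9, and the only count that moved by over 1.5 times was that of genes higher at 55 h, with 2 against 4 without the block. Of 824 values of named genes under the alternatives 792 kept direction and call, 32 lost the call and none reversed, and 41 of 50 gene comparisons were the same under all. Of these values 461 came from leaving out 1 library. Most of these genes were named for large differences in the same data, so the rate does not extend to the family. The summed level in 2-cell libraries depends on scaling: under median-ratio scaling it was 1521 in early, 1112 in mid and 1024 in late 2-cell embryos. Depth limits values of a few CPM most, such as Ndufaf3 before the morula stage.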
